A study of Mus musculus with 4 samples.

Results

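Caveolae are flask-shaped pits of the plasma membrane, and they are abundant in lung capillary endothelium. Caveolins, which are inserted in the membrane, and cavins, which form a coat on its cytoplasmic side, build the pit together, and the ATPase EHD2 sits at its neck and holds it at the surface. Ferlins are large membrane-anchored proteins with many C2 domains that act in calcium-triggered membrane fusion and in the resealing of torn plasma membrane. The genes described here are 8 of the 17915 genes of the deposited table, found by symbol: the caveolins Cav1 and Cav2, the cavins Cavin1, Cavin2 and Cavin3, Ehd2, and the ferlins Myof (myoferlin) and Dysf (dysferlin). All 8 had reads in every library and passed the filter on low counts. Myof was chosen for an even rise in the tdTomato+ libraries, so its difference between the groups is given as a description with no test. The other 7 were chosen by name.

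The study used 2 recombinases to mark lung endothelial cells in which smooth muscle actin (aSMA, gene Acta2) had been switched on, in a mouse model of lung fibrosis after transverse aortic constriction (TAC), a surgical narrowing of the aorta. The genotype was Cdh5-CreER;aSMA-LSL-Dre;NR1 for every library, NR1 not being spelled out in the labels, with tamoxifen given 5 times and TAC for 6 weeks. Cdh5-CreER acts in cells that express the endothelial cadherin gene Cdh5, so the record covers that lineage only. Cells with no such record (ZsGreen+) and cells that carry it, which it marks even where the actin gene was on only briefly (tdTomato+), gave 2 bulk RNA-seq libraries each. The labels call the 2 libraries of a group biological replicates and do not say whether each came from its own mouse, nor the animals' age. The p-values therefore cover only the spread among the libraries at hand. Every library here came from mice with TAC, so no comparison with unoperated lungs is made.

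Total counts ran from 17050673 to 18574737 per library. All 8 pan-endothelial markers were read in every library, with a summed level of 6344.4 and 5959.8 CPM in tdTomato+ and 7571.4 and 6879.4 CPM in ZsGreen+ libraries (CPM, counts scaled to library size with TMM factors). Acta2 itself stood at 303.9 and 527.5 CPM in tdTomato+ and at 87.6 and 82.9 CPM in ZsGreen+ libraries, in the direction of the labels. The edgeR quasi-likelihood test called 40 of 13177 genes at a Benjamini-Hochberg adjusted p under 0.05, which is 0.304% of the genes tested. In bulk RNA, fewer cells of a type and less RNA per cell cannot be told apart.

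Cav2 and Cav1 are neighbours on chromosome 6 of GRCm38, with RefSeq gene spans of chr6:17281185-17289130 and chr6:17306335-17341328 and 17205 bp between them. The deposited table gives Cav2 a longer span that takes in the whole of Cav1, so how reads were divided at this locus depends on transcript models that were not examined. Cavin2 lies at chr1:51289126-51302960, Cavin3 at chr7:105480616-105482197, Ehd2 at chr7:15946963-15967535, Myof at chr19:37899036-38043577 and Dysf at chr6:84008361-84211060. Cavin1 spans chr11:100956736-100970617 in RefSeq, on the minus strand, whereas the deposited table gives it the plus strand and an end at 100971047, so how its reads were assigned was not settled here. The table names 31 transcripts for Dysf and 5 for Myof, and gene-level values do not tell them apart. By the domain column of the table, Cav1 and Cav2 share the caveolin domain, the cavins share 1 family domain, and Myof and Dysf carry the same set of C2 and ferlin domains.

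RefSeq promoter windows of GRCm38.p6 matched 7 of the 8 genes, all but Cavin3, with 2 start sites each for Cav1, Cavin1 and Dysf, and the 250 bases upstream of each start were searched on both strands. The windows below are those of Myof, the gene with the largest fold between the groups among the 8, and of the genes whose levels differ most between the ZsGreen+ libraries (Cav2 and Cavin2) or lie beside them (Cav1). Capitals mark matches to the CCAAT box (CCAAT or ATTGG), the GC box (GGGCGG or CCGCCC) and the TATA box (TATAAA or TTTATA). The Myof window is chr19:38043578-38043827 on the minus strand, and the others are on the plus strand: Cav1 chr6:17306085-17306334, Cav2 chr6:17280935-17281184 and Cavin2 chr1:51288876-51289125.
Myof: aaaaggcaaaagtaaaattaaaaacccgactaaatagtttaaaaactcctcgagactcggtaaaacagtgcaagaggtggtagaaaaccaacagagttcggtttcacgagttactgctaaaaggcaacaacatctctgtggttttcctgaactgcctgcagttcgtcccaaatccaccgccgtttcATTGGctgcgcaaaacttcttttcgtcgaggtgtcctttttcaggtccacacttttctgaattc
Cav1: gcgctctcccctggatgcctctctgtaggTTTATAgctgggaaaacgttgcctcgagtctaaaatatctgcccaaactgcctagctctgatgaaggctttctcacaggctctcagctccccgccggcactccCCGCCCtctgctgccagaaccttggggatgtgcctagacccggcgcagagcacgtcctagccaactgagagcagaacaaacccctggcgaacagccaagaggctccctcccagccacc
Cav2: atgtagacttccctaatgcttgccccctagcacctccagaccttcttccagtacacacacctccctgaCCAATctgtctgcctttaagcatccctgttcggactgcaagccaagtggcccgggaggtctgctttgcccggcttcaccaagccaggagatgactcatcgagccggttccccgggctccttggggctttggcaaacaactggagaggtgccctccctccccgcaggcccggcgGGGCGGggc
Cavin2: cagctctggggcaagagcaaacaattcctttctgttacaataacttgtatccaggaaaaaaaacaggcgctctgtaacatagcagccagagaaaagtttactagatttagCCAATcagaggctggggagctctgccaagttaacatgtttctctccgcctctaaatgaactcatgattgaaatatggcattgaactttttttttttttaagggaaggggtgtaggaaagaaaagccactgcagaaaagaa

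The CCAAT box was found upstream of 5 of the 7 genes (Cav2, Cavin1, Cavin2, Ehd2 and Myof), against 34.5% of 27025 promoters searched over the same length. It lies 64 bases upstream of the start in Myof, 140 in Cavin2 and 182 in Cav2. The GC box was found in 5 of 7 (Cav1, Cav2, Cavin1, Ehd2 and Dysf), against 32.9% of promoters. Myof and Cavin2 hold no GC box in this window and have the lowest GC content of the 7, at 42.8% and 40.4%, below the median of 52% over all promoters. The TATA letters occur in 1 of 7, Cav1, on the reverse strand 221 bases upstream of the start, against 13.0% of promoters. The TEAD letters (GGAATG or CATTCC) occur in 1 of 7, Cavin1, and the E-box (CACGTG) in 0 of 7, against 12.6% and 6.05% of promoters. The CACCC box (CCACCC or GGGTGG) occurs in 2 of 7, Cavin1 and Dysf, against 27.7%. A gene was counted when any of its windows held the letters, whereas the shares are over single promoters. Cav1, Cavin1 and Dysf thus had 2 windows in which to match. Each motif counted for Cav1 or Dysf lies in only 1 of the windows of that gene. All of these are letter matches and not measured binding.

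Caveola genes were among the most abundant transcripts of these cells, and both ferlins lay far below them. On the deposited TPM scale, which divides by transcript length, Cav1 had a mean of 782.6 TPM over the 4 libraries, Cavin3 766.1, Cavin1 588.0, Ehd2 461.0, Cavin2 228.4, Cav2 155.5, Dysf 42.5 and Myof 14.4. Cav1 and Cavin3 did not keep their order: Cav1 was the higher of the pair in 2 of 4 libraries. Every other neighbouring pair in that order kept it in 4 of 4 libraries. Within each library Cav1 stood at the 98.4th to 99.0th percentile of all genes by TPM and Cav2, the lowest caveola gene, at the 91.6th to 95.7th.

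**Figure D1:**
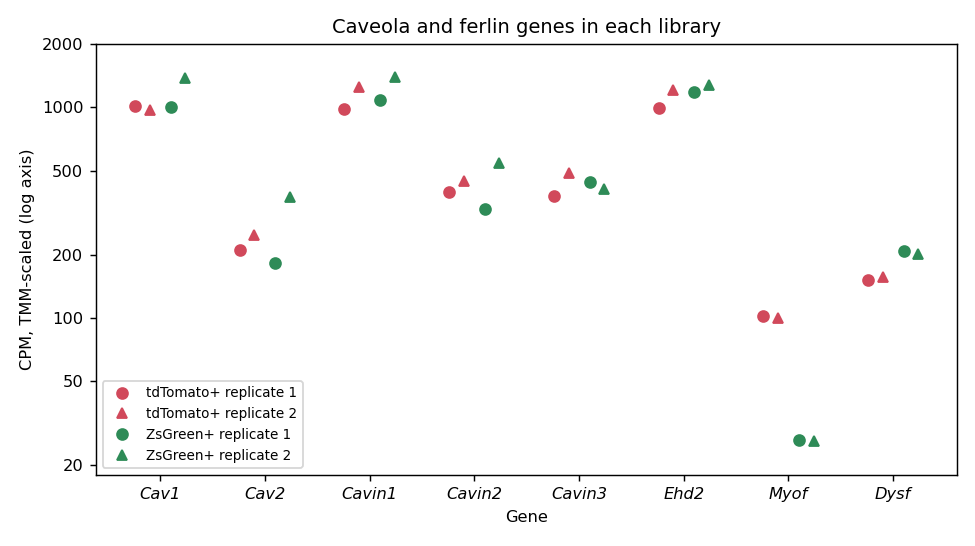
TMM-scaled CPM (log axis) of each gene in each of the 4 libraries, red for tdTomato+ and green for ZsGreen+, circles for replicate 1 and triangles for replicate 2. Myof stands near 101.2 CPM in tdTomato+ and near 26.1 CPM in ZsGreen+ libraries, while Cav1, Cav2, the cavins and Ehd2 overlap between the groups.

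Myof was 3.87 times as high in tdTomato+ as in ZsGreen+ libraries, and its replicates lay close together. Its level was 102.1 and 100.4 CPM in tdTomato+ replicates 1 and 2, and 26.3 and 26.0 CPM in ZsGreen+ replicates 1 and 2. Both tdTomato+ libraries were thus above both ZsGreen+ libraries, and the lower of the first was 3.81 times the higher of the second. The group means were 101.2 ± 1.19 and 26.1 ± 0.253 CPM (SD, n = 2), from 1855 and 1912 counts against 416 and 474. The replicates of each group differed by less than the counting error of those counts (their square root), so their closeness says little about the spread between animals. The fitted log2 fold change was 1.95 (tdTomato+ over ZsGreen+), the value for which the gene was chosen. On the TPM scale Myof stood at 24.1 and 22.6 TPM in tdTomato+ and 5.07 and 5.85 TPM in ZsGreen+ libraries, the 72.5th and 72.3rd against the 53.2nd and 52.1st percentile of genes. Myoferlin is known to act in membrane repair and vesicle trafficking, and in endothelium it is known to stabilise the VEGF receptor KDR at the surface. The Kdr transcript stood at 376.5 and 300.4 CPM in tdTomato+ and 422.1 and 453.9 CPM in ZsGreen+ libraries. It did not pass the test (log2 fold change -0.37, SE 0.20, edgeR adjusted p = 0.715). RNA levels do not measure the receptor protein at the surface.

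Dysf, the ferlin best known for sarcolemma repair in muscle, pointed the other way by a small amount and did not pass the test. It stood at 151.6 and 156.0 CPM in tdTomato+ and 208.7 and 201.6 CPM in ZsGreen+ libraries. Both tdTomato+ libraries were below both ZsGreen+ libraries, as in 18.2% of all genes tested. The means were 153.8 ± 3.11 and 205.2 ± 5.03 CPM (SD, n = 2), with a log2 fold change of -0.42 (SE 0.17, 95% interval -0.81 to -0.02). The edgeR unadjusted p was 0.0416, a level that 8.77% of all genes passed, and the adjusted p was 0.538. On the TPM scale the libraries stood at 39.0 and 38.0 TPM against 43.9 and 49.2 TPM.

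The makeup of the ferlin transcripts differed between the groups while their sum differed less. Myof and Dysf together gave 63.1 and 60.6 TPM in tdTomato+ and 49.0 and 55.0 TPM in ZsGreen+ libraries. Myof was 38.2% and 37.4% of that sum in tdTomato+ libraries and 10.3% and 10.6% in ZsGreen+ libraries. The ratio of Myof to Dysf, which needs no scaling between libraries, was 0.619 and 0.596 against 0.115 and 0.119. It rests on the gene chosen for its rise and is a description. Against Pecam1, an endothelial adhesion molecule, the TPM ratio of Myof was 0.0245 and 0.0248 in tdTomato+ and 0.00563 and 0.00599 in ZsGreen+ libraries, and that of Dysf 0.0395 and 0.0417 against 0.0488 and 0.0504. The other ferlins Otof, Fer1l4, Fer1l5 and Fer1l6 did not pass the filter on low counts, and none exceeded 0.33 CPM in any library.

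**Figure D2:**
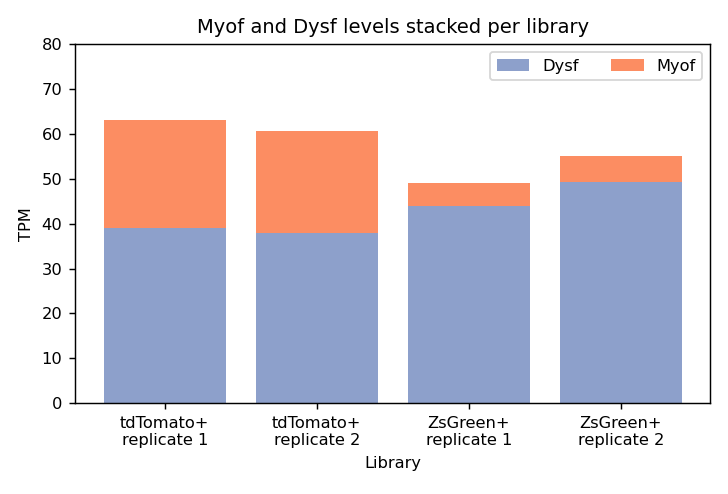
Deposited TPM of Dysf (blue) and Myof (orange) stacked for each library, with the axis starting at 0. Myof makes up 38.2% and 37.4% of the bar in tdTomato+ libraries and 10.3% and 10.6% in ZsGreen+ libraries.

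Cav1, the caveolin without which endothelial caveolae do not form, did not differ detectably between the groups. It stood at 1014.6 and 973.9 CPM in tdTomato+ and 1003.4 and 1376.2 CPM in ZsGreen+ libraries. ZsGreen+ replicate 2 was the high library and the other three lay together. The fitted log2 difference was -0.26 (SE 0.22, 95% interval -0.79 to 0.27, edgeR adjusted p = 0.848).

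Cav2, which pairs with caveolin 1 in hetero-oligomers, showed the widest spread of the caveola genes, and the spread was between the ZsGreen+ replicates. Its level was 209.7 and 247.4 CPM in tdTomato+ and 182.0 and 373.8 CPM in ZsGreen+ libraries. The tdTomato+ values fell inside the range of the ZsGreen+ values, whose replicates differed 2.05-fold. The log2 fold change was -0.28 (SE 0.33, 95% interval -1.07 to 0.51, edgeR adjusted p = 0.901), and it turned to 0.33 without ZsGreen+ replicate 2. The TPM ratio of Cav2 to Cav1 was 0.178 and 0.217 in tdTomato+ and 0.156 and 0.229 in ZsGreen+ libraries, so Cav1 supplied 81.4% to 86.5% of caveolin transcripts in every library.

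Cavin1, the cavin needed for caveola formation, stood at 978.7 and 1248.8 CPM in tdTomato+ and 1084.1 and 1393.6 CPM in ZsGreen+ libraries. Replicate 2 was the higher library in each group, by 1.28-fold and 1.29-fold, and the groups overlapped. The log2 fold change was -0.15 (SE 0.23, 95% interval -0.70 to 0.39, edgeR adjusted p = 0.928), and it turned to 0.01 without tdTomato+ replicate 1 and to 0.04 without ZsGreen+ replicate 2.

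Cavin2, a cavin that shapes caveolar membrane and is prominent in lung endothelium, followed the spread of Cav2. It stood at 396.1 and 448.8 CPM in tdTomato+ and 329.1 and 546.6 CPM in ZsGreen+ libraries, where the replicates differed 1.66-fold. The tdTomato+ libraries again fell between the ZsGreen+ libraries. The log2 fold change was -0.05 (SE 0.27, 95% interval -0.69 to 0.59, edgeR adjusted p = 0.982). Its sign depended on the data used: it was 0.36 without ZsGreen+ replicate 2, 0.03 without tdTomato+ replicate 1 and 0.14 on the deposited TPM values.

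Cavin3, a cavin that binds protein kinase C delta, did not share the high value in ZsGreen+ replicate 2. It stood at 378.2 and 488.1 CPM in tdTomato+ and 441.7 and 407.8 CPM in ZsGreen+ libraries. The ZsGreen+ values lay inside the tdTomato+ range. The log2 fold change was 0.03 (SE 0.21, 95% interval -0.46 to 0.52, edgeR adjusted p = 0.989), with -0.14 without tdTomato+ replicate 2 and -0.03 without ZsGreen+ replicate 2. The TPM ratio of Cavin3 to Cavin1 was 1.39, 1.4 and 1.45 in tdTomato+ replicates 1 and 2 and ZsGreen+ replicate 1, and 1.05 in ZsGreen+ replicate 2.

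Ehd2 stood at 995.5 and 1208.9 CPM in tdTomato+ and 1189.3 and 1281.9 CPM in ZsGreen+ libraries. The low library was tdTomato+ replicate 1. The log2 fold change was -0.16 (SE 0.20, 95% interval -0.64 to 0.31, edgeR adjusted p = 0.903). The TPM ratio of Ehd2 to Cav1 was 0.529 and 0.682 in tdTomato+ and 0.654 and 0.529 in ZsGreen+ libraries and did not separate the groups.

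Of the 7 genes not chosen on values, edgeR called 0, against 0.304% of all genes tested. An edgeR unadjusted p under 0.05 was found for 1 of them, beside 8.77% of all genes. DESeq2, limma-voom and every other fit tried also called 0 of the 7. Their median log2 fold change was -0.16, with 6 of 7 below 0, beside a median of -0.01 over all genes tested. The intervals of Cav1, Cavin1, Cavin3 and Ehd2 reach no further than -0.79 and 0.52, whereas those of Cav2 and Cavin2 are wider. A missed threshold with 2 libraries per group does not show equal levels.

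**Figure D3:**
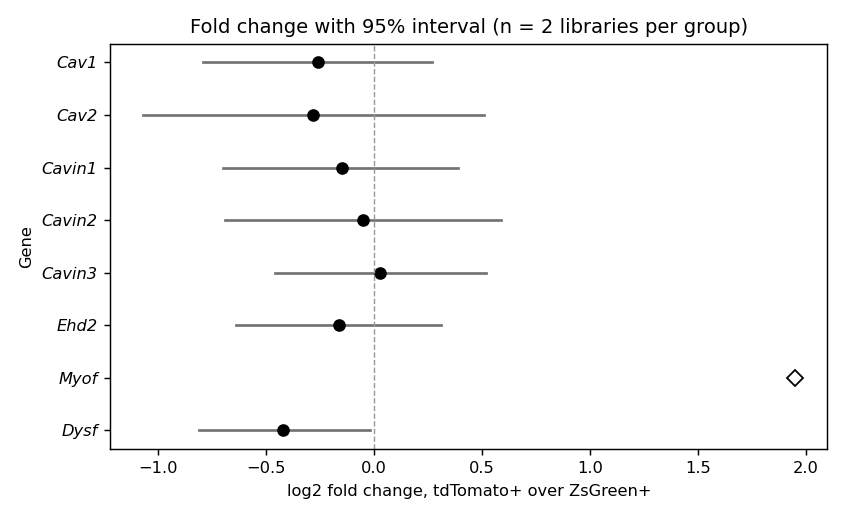
Fitted log2 fold change of tdTomato+ over ZsGreen+ for each gene, with 95% intervals as lines for the 7 genes not chosen on values. The open diamond marks Myof, chosen for this difference and shown without an interval, at 1.95. The intervals of the caveola genes cross 0, and that of Dysf runs from -0.81 to -0.02.

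The library-to-library pattern split the 8 genes further. ZsGreen+ replicate 2 held the highest level of 5 of them (Cav1, Cav2, Cavin1, Cavin2 and Ehd2), while 27.1% of all genes tested were highest there. Between the ZsGreen+ replicates the difference was 2.05-fold for Cav2, 1.66-fold for Cavin2, 1.37-fold for Cav1, 1.29-fold for Cavin1 and 1.08-fold for Ehd2. Cavin3, Myof and Dysf were slightly lower in replicate 2, at 0.923, 0.986 and 0.966 of replicate 1. The summed caveolin level was 729.9 and 1234.7 TPM in these libraries and 921.6 and 866.3 TPM in tdTomato+ libraries. Summed levels of several marker lists also differed between the ZsGreen+ replicates. The macrophage sum was 2998.3 and 632.0 CPM (5428.5 and 2542.5 CPM in tdTomato+), with all 9 markers read. The sum for alveolar type 1 cells, which are themselves rich in caveolae, was 161.0 and 242.9 CPM (90.2 and 111.9 CPM in tdTomato+), with all 7 markers read. Clic5 alone, at 83.6 and 168.3 CPM, carried that difference, while Ager (21.6 and 19.8 CPM) and Pdpn (47.6 and 42.9 CPM) were slightly lower in replicate 2. The remaining markers were higher there at low levels: Hopx (4.87 and 5.92 CPM), Aqp5 (1.52 and 3.18 CPM), Akap5 (0.696 and 1.64 CPM) and Rtkn2 (1.14 and 1.21 CPM). As replicate 2 over replicate 1, the sum was 1.8 for pericyte, 1.33 for lymphatic, 0.74 for general capillary, 0.71 for smooth muscle and 0.532 for adipocyte markers. Of the lymphatic markers, Prox1 (6.9 and 17.9 CPM), Mmrn1 (74.5 and 161.4 CPM) and Reln (28.9 and 63.0 CPM) rose most. Lyve1 (407.4 and 592.7 CPM), Thy1 (57.6 and 71.3 CPM) and Fxyd6 (40.0 and 51.0 CPM) rose less, and Flt4 (318.7 and 281.4 CPM) was lower. Pericyte and adipocyte sums were no higher than 11.4 CPM in any library. Plvap (5205.5 and 3351.5 CPM) fell by more than the general capillary sum did (6840.1 and 5060.3 CPM). Aplnr (624.7 and 487.7 CPM) and Kit (159.8 and 154.1 CPM) were also lower in replicate 2. Gpihbp1 (709.4 and 729.7 CPM), Sema3c (118.3 and 288.3 CPM) and Glp1r (22.4 and 48.9 CPM) were higher there. Tagln (1300.2 and 893.8 CPM) made up most of the smooth muscle drop, with Acta2 at 87.6 and 82.9 CPM. The part of these cell types in the spread of the caveola genes was not tested.

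**Figure D4:**
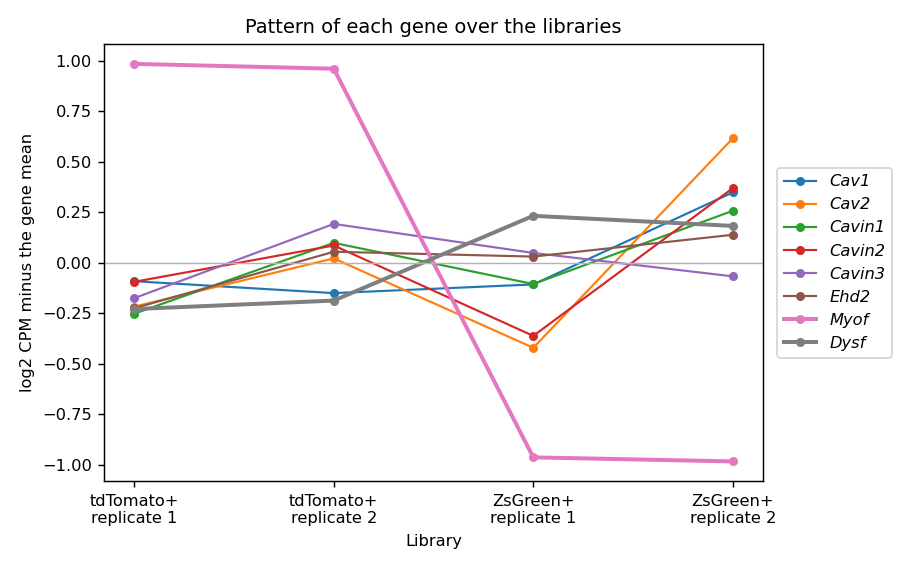
Log2 CPM of each gene minus its mean over the 4 libraries, with a line joining the values of 1 gene and no order implied among libraries. Cav2 and Cavin2 are lowest in ZsGreen+ replicate 1 and highest in ZsGreen+ replicate 2, and Myof separates the groups by about the same amount in each replicate.

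Genes whose pattern over the 4 libraries was nearest to Myof were Sulf1, Fbln2, Cpe, Kank1 and Car8, by Euclidean distance in centred log2 CPM among 10359 other genes averaging 5 CPM or more. The distance was 0.132 for Sulf1, at 80.8 and 88.3 CPM in tdTomato+ and 20.8 and 20.6 CPM in ZsGreen+ libraries, and 0.319 for Car8, the fifth. The nearest to Cav1 were Rxylt1, Cyth3, Evi5, Gm12657 and Nudt2, at distances from 0.0332 to 0.0523. Of the other caveola genes, Cavin1 ranked 1297th in nearness to Cav1, Cavin2 1807th, Ehd2 1855th, Cav2 3743rd and Cavin3 5566th. Of the genes nearest to Myof, Cpe and Car8 are in the venous and Fbln2 in the arterial marker list used here. Myof was chosen for its even rise in tdTomato+ libraries, so the genes nearest to it share that rise by construction. With 4 libraries such distances describe these samples only.

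Marker levels of other cell types stood beside the difference in Myof. Fibroblast markers summed to 238.4 and 438.5 CPM in tdTomato+ and 96.7 and 119.9 CPM in ZsGreen+ libraries, with 9 of 9 log2 fold changes above 0. Smooth muscle markers, Acta2 included, summed to 1662.6 and 2358.5 against 1414.2 and 1004.7 CPM (6 of 7 above 0), and venous endothelial markers to 2907.4 and 3797.7 against 1264.8 and 1103.1 CPM (6 of 6 above 0). Arterial markers summed to 1377.1 and 1818.3 against 884.2 and 812.2 CPM, with 5 of 7 above 0, Gja4 at -0.15 and Hey1 at -0.60. Between the tdTomato+ replicates some of these markers were uneven, as Vwf at 2006.4 and 2961.5 CPM. Others lay closer together, as Vcam1 at 294.1 and 275.7 CPM and Fbln2 at 257.0 and 251.6 CPM. Aerocyte (alveolar capillary) markers lay on the same side as Dysf, with sums of 221.8 and 239.7 against 411.6 and 446.2 CPM and 0 of 7 above 0. General capillary markers had 0 of 6 above 0 and a median log2 fold change of -0.97, with overlapping sums of 4991.0 and 5310.8 against 6840.1 and 5060.3 CPM. Both tdTomato+ libraries were below both ZsGreen+ libraries in 6 of 7 aerocyte, 4 of 6 general capillary and 6 of 7 lymphatic markers, beside 18.2% of all genes. Neutrophil and monocyte markers, a source of dysferlin RNA in blood cells, had 7 of 8 above 0, with Ly6c2 at -0.85. They summed to 243.0 and 329.1 CPM in tdTomato+ and 234.1 and 227.5 CPM in ZsGreen+ libraries. Plac8 made up most of this sum, at 190.9 and 238.1 against 192.4 and 135.7 CPM. Macrophage markers had 9 of 9 above 0, with overlapping sums of 5428.5 and 2542.5 against 2998.3 and 632.0 CPM. The adipocyte marker Adipoq had 0 counts in all libraries, and the mesothelial sum did not exceed 7.46 CPM. The part of these cells in the values of Myof and Dysf was not tested.

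The 6 lists of genes of the same membrane systems hold 58 genes, of which 52 were tested, with no other ferlin among them. None of the 52 passed edgeR over all genes, beside 0.304% of all genes. An edgeR unadjusted p under 0.05 was found for 10 of the 52, beside 8.77% of all genes. In the list of other caveola coat and neck genes (11 of 12 tested, median log2 fold change -0.04) Nostrin, an adaptor that binds endothelial nitric oxide synthase and steers its trafficking, stood at 80.9 and 83.2 CPM in tdTomato+ and 132.8 and 185.8 CPM in ZsGreen+ libraries. The groups did not overlap, with a fitted difference of -0.96 (log2, SE 0.21, edgeR adjusted p = 0.178). Ehd3 and Src lay at 1.26 (SE 0.37) and 1.24 (SE 0.40) at levels no higher than 32.7 CPM. Plvap, which forms the diaphragm over the mouth of caveolae, overlapped between the groups, with 4021.7 and 4436.6 CPM in tdTomato+ and 5205.5 and 3351.5 CPM in ZsGreen+ libraries. The muscle forms Cav3 and Cavin4 did not exceed 0.712 CPM.

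Proteins known as residents or cargo of endothelial caveolae pointed in both directions. Of 9 genes tested (median log2 fold change -0.37), both tdTomato+ libraries were above both ZsGreen+ libraries in 3 and below in 5, beside 19.9% and 18.2% of all genes. Nos3, endothelial nitric oxide synthase, stood at 200.5 and 322.4 CPM for tdTomato+ and 107.4 and 137.7 CPM for ZsGreen+ libraries, a log2 fold change of 1.09 (SE 0.27, edgeR adjusted p = 0.231). Cd36, a fatty acid carrier, stood at 566.5 and 637.8 CPM for tdTomato+ and 937.2 and 1474.7 CPM for ZsGreen+ libraries (-1.0, SE 0.26, edgeR adjusted p = 0.267), and the calcium channel gene Trpv4 had 0.96 (SE 0.38). Without ZsGreen+ replicate 1 the log2 fold change was -1.18 for Nostrin and -1.29 for Cd36, and without ZsGreen+ replicate 2 it was -0.70 and -0.64. DESeq2 called Nostrin, Cd36, Nos3 and Anxa1, beside 330 of all 13177 genes, where the edgeR test called 40.

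Other repair genes lay near the middle of all genes. The annexins and their S100 partners, which bind damaged membrane in the presence of calcium, had a median of -0.07 (log2 fold change, 10 genes). Anxa1 stood apart at 198.3 and 243.3 CPM in tdTomato+ and 91.9 and 113.0 CPM in ZsGreen+ libraries (1.11, SE 0.20), with an edgeR adjusted p of 0.120 that became 0.0441 with no filter on low counts. Anxa2, the most abundant of them, had -0.26 (SE 0.21) and its partner S100a10 -0.25 (SE 0.18). Calpain, ESCRT and exocytic repair genes had a median of -0.11 over 17 of 18 tested, with Syt7, a calcium sensor of lysosome exocytosis, at 0.97 (SE 0.40) and the ESCRT genes Chmp2a and Vps4a at -0.37 (SE 0.17) and -0.36 (SE 0.18). Trim72, a repair gene of muscle, did not exceed 0.55 CPM. The raft proteins had a median of 0.04 over 5 genes, with Flot1 at -0.27 (SE 0.21), Stom at 0.18 (SE 0.18) and Erlin1 at 0.07 (SE 0.24).

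**Figure D5:**
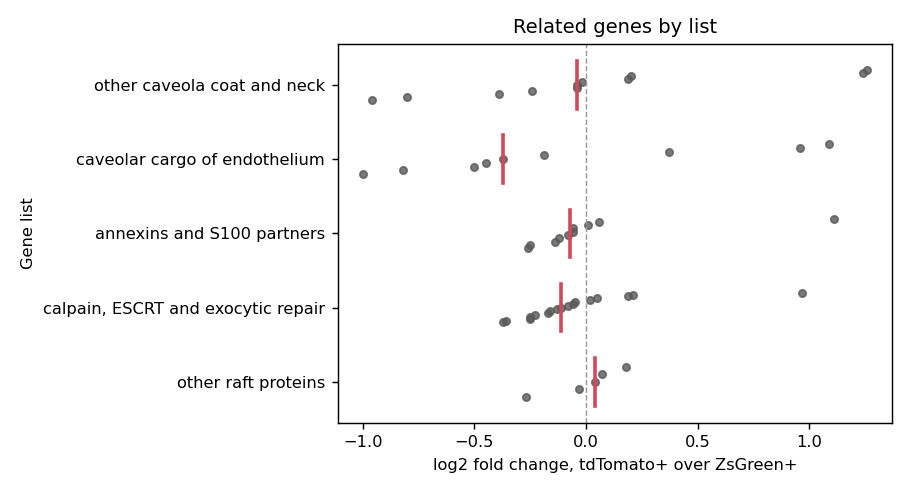
Log2 fold change of tdTomato+ over ZsGreen+ for each tested gene of the related lists, with the red bar at the list median and vertical offsets only for legibility. Medians run from -0.37 for caveolar cargo to 0.04 for raft proteins, and Anxa1 lies apart from the other annexins at 1.11.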

How the data were processed

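RNA of sorted lung endothelial cells was amplified from a small input before library preparation, per the labels' protocols, which can add spread between libraries. The authors deposited estimated counts per gene, named read counts in the file headers, of which 16.2% to 17.9% per library are not whole; they are whole for all 8 genes described here. The authors also deposited TPM values, which were used for levels between genes and ratios within a library. RSEM 1.3.1 and DESeq2 1.4.5 are named, per the submitters' processing notes, with mm10 and GRCm38 as builds; the aligner was not given in the sources used here, and without a stated strand setting reads of overlapping genes cannot be told apart. Another 8 columns of per-library values were not used.

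Counts were rounded and tested with edgeR 4.0.16 (R 4.3.3): TMM, filterByExpr with a minimum count of 10, two-sided quasi-likelihood F-test, Benjamini-Hochberg adjustment over all genes. Standard errors were derived from the fold change and its F statistic, and approximate 95% intervals used the moderated degrees of freedom. With 2 against 2 libraries an exact permutation test cannot go below p = 0.333 (two-sided), so none is given. The procedure was tested on simulated data. Alternatives were other scaling factors, DESeq2 1.42.0, limma 3.58.1 (voom, and log2 of TPM plus 1 or 0.1), other filters, leaving out each library and a replicate block. Genes and lists were chosen with earlier results of these data known. Named are the 8 genes, up to 3 per related list by smallest p with a mean of at least 1 CPM, and the 5 nearest in pattern to Myof and Cav1; Acta2, Pecam1, Plvap, Kdr, Cav3, Cavin4, Trim72, the other ferlins, Adipoq, Cdh13 and single marker genes were named after their values were seen.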

Additional observations from a re-analysis of the deposited data

How the results depend on the processing

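Under all 14 alternatives edgeR, DESeq2 or limma called 0 of the 7 genes not chosen on values, and the log2 fold changes of Cav1 (-0.47 to -0.02), Ehd2 (-0.29 to -0.03) and Dysf (-0.44 to -0.27) kept their sign, as did that of Myof (1.92 to 2.08). Those of Cav2 (-0.71 to 0.33), Cavin1 (-0.32 to 0.04), Cavin2 (-0.37 to 0.36) and Cavin3 (-0.14 to 0.20), like that of Erlin1 (-0.15 to 0.34), changed sign when 1 library was left out; on log2 of TPM plus 1 or plus 0.1 Cavin2 was at 0.14, where the median of all genes moved to 0.12 and 0.13. The count of 40 genes called ran from 4 to 304 when 1 library was left out (tdTomato+ replicates 1 and 2 left out in turn gave 17 and 4, the ZsGreen+ ones 304 and 26), and was 330 with DESeq2, 128 without a filter on low counts and 22 on log2 of TPM plus 0.1. The share of calls higher in tdTomato+ was 55%, against 71% and 72.7% on log2 of TPM plus 1 and plus 0.1. It was 51.5% with limma-voom, 62.1% with DESeq2, 64.8% without a filter and 72.7% with the replicate block. Leaving out a library also moved this share. Of the 52 related genes tested, 4 were called by DESeq2, beside 330 of 13177 genes. Without a filter 1 was called, beside 128 of 16747 genes. The causes were not tested.

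With the replicate number as a block edgeR called 934 genes, among them 0 of the 7 and 9 of the related genes: Anxa1 (adjusted p = 1.53e-05), Nos3 (5.28e-05), Nostrin (0.000366), Ehd3 (0.000417), Cd36 (0.0021), Trpv4 (0.005), Src (0.013), Syt7 (0.0282) and Scarb1. Same-numbered libraries deviated together (r = 0.455 over 13177 genes), but with 2 pairs that share only a number the block is no paired design. Myof rests on 416 or more counts per library and the caveola genes on 2877 or more; the intervals reflect the spread between 2 libraries per group.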

Other observations

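The deposited table annotates 97 genes with the caveola term of Gene Ontology, a list chosen after the data were seen, and 7 of them are genes described above (all but Dysf). Of the other 90, 72 were tested: both tdTomato+ libraries lay above both ZsGreen+ libraries in 21 and below in 11, beside 19.9% and 18.2% of all genes. edgeR called 1 of the 72, beside 0.304% of all genes. This was Cdh13, T-cadherin, a cadherin held in the membrane by a lipid anchor and a receptor for adiponectin. It stood at 343.8 and 375.9 CPM in tdTomato+ and 130.3 and 103.6 CPM in ZsGreen+ libraries, a log2 fold change of 1.62 (SE 0.20, edgeR adjusted p = 0.0432). The call ended without tdTomato+ replicate 1 (edgeR adjusted p = 0.116), without tdTomato+ replicate 2 (0.28) and without ZsGreen+ replicate 2 (0.0674), and over all 14 alternatives the adjusted p ran from 6.12e-11 to 0.28 and the log2 fold change from 1.46 to 1.8. The term for plasma membrane repair marks 15 genes, Myof and Dysf among them. Of the other 13, 9 were tested and edgeR called 0, beside 0.304% of all genes. An edgeR unadjusted p under 0.05 was found for 2 of the 9, beside 8.77% of all genes.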
